A study of Mus musculus with 6 samples.

Results

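LYR-motif proteins are small proteins that carry a short leucine-tyrosine-arginine signature, and most of them work inside mitochondria. The 7 genes described here encode members of this family: Lyrm9, Lyrm1, Lyrm2, Lyrm4, Sdhaf1, Sdhaf3 and Etfrf1. They were found by matching gene symbols to the Ensembl IDs of the count tables on GRCm38 with GENCODE M21. All 7 were found among 55421 gene IDs, and all 7 were among the 17016 genes with enough counts to be tested. Lyrm9 was chosen because it had passed the test across all genes in the contrast described below, so its difference between the groups is given as a description, with no test. The other 6 members were taken as relatives of Lyrm9, and for these the test across all genes is given.

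Bulk RNA sequencing was done on pancreatic islets of C57BL/6 mice with the genotype given as WT, in 3 libraries of the insB:9-23 group and 3 libraries of the vehicle group. insB:9-23 names a peptide of the B chain of insulin that T cells recognise in autoimmune diabetes, and the study asked which islet genes and pathways respond to it. The labels give the treatments as stimulation with the ligand and as vehicle. The sources used here do not give age, sex, dose or duration, nor whether mice or isolated islets were treated. Islets of both groups were frozen, and their total RNA was extracted with TRIzol. Nothing ties a library to 1 mouse or to a pool of mice, so the errors and p-values cover variation among these libraries, part or all of which could be technical.

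Many proteins of this family bind the mitochondrial acyl carrier protein, and several of them hold together or assemble enzymes that contain iron-sulfur clusters or flavin. No such role is given here for Lyrm9. Lyrm4, also called ISD11, stabilises the cysteine desulfurase Nfs1, which supplies the sulfur of iron-sulfur clusters. Sdhaf1 and Sdhaf3 help to mature the iron-sulfur subunit of respiratory complex II, and Etfrf1 regulates the electron transfer flavoprotein of fatty acid oxidation. Lyrm2 has been tied to complex I in human cells, and Lyrm1 was first described in human adipose tissue. Beta cells depend on mitochondrial respiration to couple glucose to insulin release.

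The start regions of 2 members are shown because they hold the same 10 letters close to the annotated start, while Lyrm9 was higher in the insB:9-23 islets and Sdhaf3 missed the test. The motif searched was GCGCANGCGC, a form of the site of NRF1, a transcription factor known for nuclear genes of mitochondrial proteins. Both strands were searched from 250 bases before to 50 bases after each RefSeq start on GRCm38.p6. Capitals mark the motif, which begins at base -16 of Lyrm9 and at base -7 of Sdhaf3, with -1 as the base before the start. The Lyrm9 window is chr11:78826345-78826644 and the Sdhaf3 window is chr6:6955768-6956067, both on the plus strand.
Lyrm9: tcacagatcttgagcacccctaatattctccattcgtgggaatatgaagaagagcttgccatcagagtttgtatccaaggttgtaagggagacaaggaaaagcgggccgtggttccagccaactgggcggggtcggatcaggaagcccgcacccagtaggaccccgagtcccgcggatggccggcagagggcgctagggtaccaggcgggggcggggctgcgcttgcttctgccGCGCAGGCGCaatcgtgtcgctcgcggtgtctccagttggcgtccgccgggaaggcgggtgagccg
Sdhaf3: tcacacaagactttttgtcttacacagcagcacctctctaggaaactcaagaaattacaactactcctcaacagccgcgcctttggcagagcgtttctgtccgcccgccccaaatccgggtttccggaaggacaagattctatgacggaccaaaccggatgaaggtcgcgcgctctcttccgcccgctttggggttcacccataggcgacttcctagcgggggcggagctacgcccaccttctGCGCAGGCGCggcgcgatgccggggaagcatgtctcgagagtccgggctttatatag

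This motif was present at 2 of the 7 members and at 3 of the 10 LYR-motif genes with a RefSeq window, the other being Ndufa6, and at 4.6% of 32851 windows of the same length. The GC box GGGCGG was present at 6 of the 7 members, Lyrm2 being the exception, and at 35.7% of all windows. The CCAAT box was present at 1 member, Sdhaf1, and at 37.4% of all windows. The NRF1-type motif overlapped no GC box in the Lyrm9 and Sdhaf3 windows, and 2 of the GC boxes of Sdhaf3 overlapped each other. Where a gene has several windows, a motif in any of them was counted. The percentages of all windows count each window by itself, so they are not on the same scale as the counts of genes. A match describes the letters only.

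Lyrm9 stood about 6-fold higher in the insB:9-23 islets. It had 2355, 2291 and 1646 counts in insB:9-23 replicates 1 to 3, against 376, 381 and 362 counts in vehicle replicates 1 to 3. Scaled to library size (CPM, counts scaled to a common library size with TMM factors) these were 40.2, 40.7 and 36.0 CPM in the insB:9-23 libraries, against 5.95, 6.11 and 6.78 CPM in the vehicle libraries. All 3 insB:9-23 libraries lay far above all 3 vehicle libraries, and the libraries of each group lay close together. Means were 39.0 ± 2.62 CPM in the insB:9-23 group and 6.28 ± 0.442 CPM in the vehicle group (SD, n = 3 each), a 6.21-fold ratio of means. The log2 fold was 2.63 ± 0.10 (SE). In bulk RNA, a different share of the cells that carry a transcript and a different amount of it per cell cannot be told apart.

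**Figure D1:**
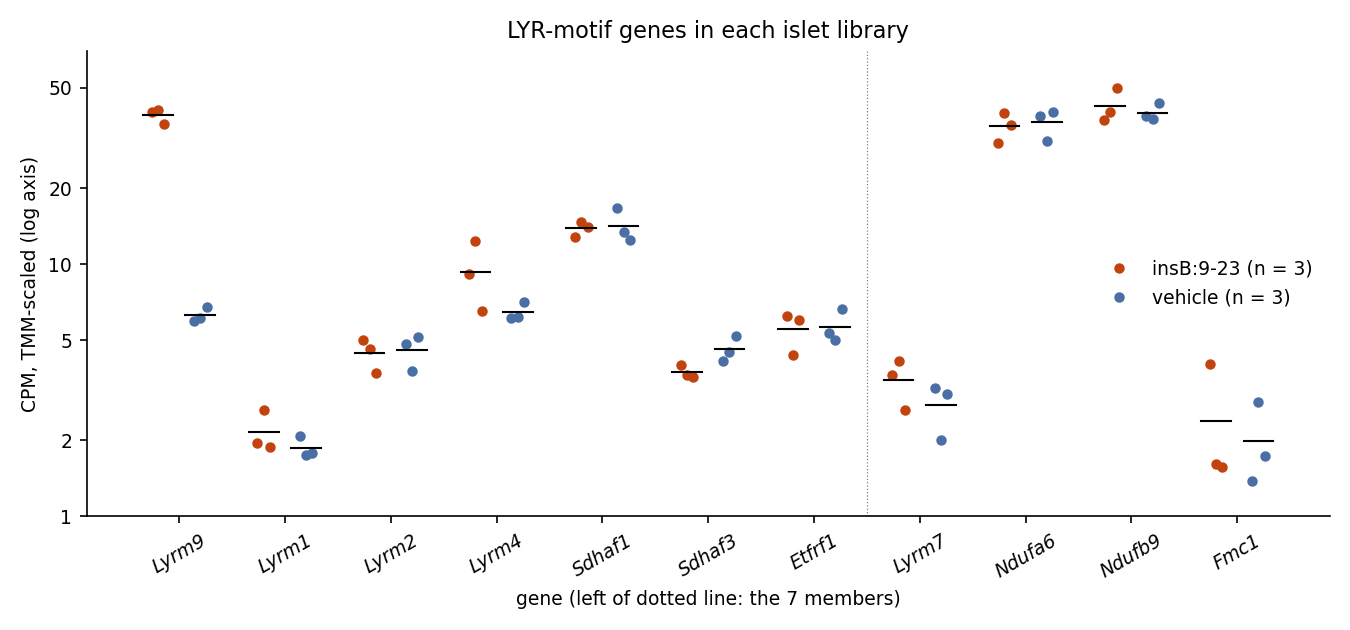
Level of each LYR-motif gene in each library (points, CPM on a log axis) with group means (lines), insB:9-23 and vehicle, n = 3 each. Lyrm9 lies at 36.0 to 40.7 CPM in the insB:9-23 libraries and at 5.95 to 6.78 CPM in the vehicle libraries. Sdhaf3 is the other gene of the 11 whose groups do not overlap, and 13.5% of all genes tested do not overlap in either direction.

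The rest of the family, taken as a sum, differed by less than the spread between libraries. The other 6 members together held 39.0, 42.2 and 35.7 CPM in the insB:9-23 libraries, against 39.0, 34.5 and 38.2 CPM in the vehicle libraries. These groups overlapped, with means of 39.0 ± 3.24 CPM in the insB:9-23 group and 37.3 ± 2.40 CPM in the vehicle group (SD, n = 3 each). Lyrm9 therefore took 50.7%, 49.1% and 50.2% of the summed counts of the 7 members in the insB:9-23 libraries, against 13.2%, 15.0% and 15.1% in the vehicle libraries. This share does not depend on how libraries are scaled. It averaged 50.01% ± 0.823 in the insB:9-23 group and 14.44% ± 1.05 in the vehicle group (SD, n = 3 each), a difference of 35.57 percentage points. Counts also follow gene length, so the share is read between libraries and not as a level against the other genes.

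**Figure D2:**
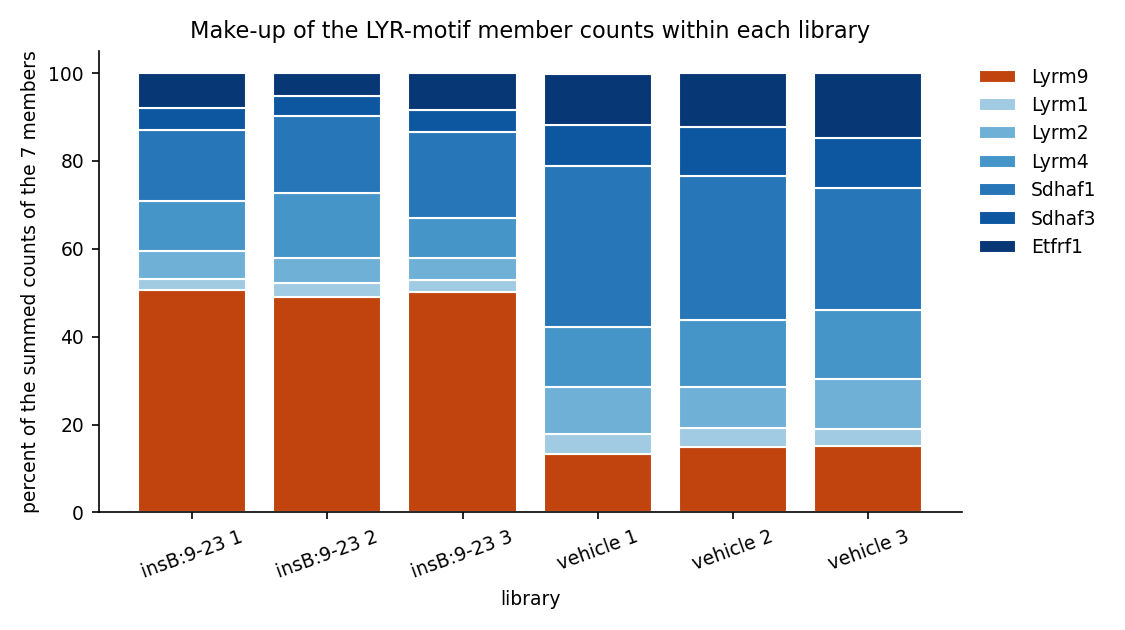
Percent of the summed counts of the 7 members that each member took, 1 bar per library. Lyrm9 fills 49.1% to 50.7% of the bar in the insB:9-23 libraries and 13.2% to 15.1% in the vehicle libraries.

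Lyrm9 was also set against single relatives within a library. Each such ratio carries the Lyrm9 difference for which the gene was chosen, so the ratios are a description. There were 4.42, 3.31 and 5.51 Lyrm9 counts per Lyrm4 count in the insB:9-23 libraries, against 0.974, 0.990 and 0.963 in the vehicle libraries. Per Sdhaf1 count there were 3.15, 2.78 and 2.56 Lyrm9 counts in the insB:9-23 libraries, against 0.359, 0.457 and 0.546 in the vehicle libraries. Lyrm4 and Lyrm9 thus had nearly equal counts in every vehicle library. Against Sdhaf3 the ratio was 10.1, 11.2 and 10.1 in the insB:9-23 libraries and 1.45, 1.36 and 1.31 in the vehicle libraries. Ndufb9, a complex I subunit, had many more counts than Lyrm9 in the vehicle libraries. Lyrm9 had 1.08, 1.02 and 0.721 counts per Ndufb9 count in the insB:9-23 libraries, against 0.154, 0.163 and 0.157 in the vehicle libraries.

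A gene chosen on this test tends to have a small spread within groups. The coefficient of variation of Lyrm9 in CPM was 6.73% in the insB:9-23 group, where counting error alone would give 2.18%, and 7.04% in the vehicle group, where it would give 5.18%. Sdhaf3 varied by 6.01% in the insB:9-23 group (counting error 7.07%) and by 11.6% in the vehicle group (counting error 6.06%). Sdhaf1 varied by 6.96% in the insB:9-23 group (counting error 3.68%) and by 15.4% in the vehicle group (counting error 3.43%). Lyrm4 varied by 31.1% in the insB:9-23 group (counting error 4.44%) and by 8.13% in the vehicle group (counting error 5.11%). Fmc1, an ATP synthase assembly factor first known from yeast, varied most of the 11 LYR-motif genes, by 57.8% in the insB:9-23 group and 38.6% in the vehicle group.

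Lyrm9 lies on chromosome 11 (chr11:78826584-78846870, plus strand, GRCm38) and has 3 annotated transcripts. The longest, Lyrm9-203, has 8035 bases, of which 7748 lie in its last exon, while Lyrm9-202 and Lyrm9-201 have 341 and 365 bases. That last exon makes up 95.1% of the 8146 exon bases of the gene. Gene counts do not show from which transcript or exon the reads came. Within the last exon, stretches of 100 to 161 bases matched transcripts of 22 other genes with at least 95% identity, and no such stretch lay before it. Of the 18 of those genes that were tested, 0 passed the edgeR test, and their log2 folds lay between -0.84 and 0.47 (median -0.01). How reads with several matches were counted is not given in the sources used here, so a part of the Lyrm9 count is uncertain.

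No annotated gene overlapped Lyrm9. Its nearest tested neighbours were Nlk, a protein kinase gene 129210 bases to the left, and Nos2, inducible nitric oxide synthase, 73916 bases to the right. Nlk was at 24.3, 23.2 and 27.6 CPM in the insB:9-23 libraries and at 26.1, 27.1 and 27.0 CPM in the vehicle libraries (edgeR adjusted p = 0.91). Nos2 was at 0.580, 0.391 and 0.262 CPM in the insB:9-23 libraries and at 0.380, 0.497 and 0.562 CPM in the vehicle libraries (edgeR adjusted p = 0.96). Both neighbours overlapped between the groups, with log2 folds of -0.09 ± 0.09 for Nlk and -0.22 ± 0.45 for Nos2 (SE).

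Between genes, levels were compared as CPM per kilobase of annotated exon. In the insB:9-23 group Sdhaf1 was highest at 5.55 ± 0.386, followed by Lyrm9 at 4.78 ± 0.322, Lyrm4 at 4.46 ± 1.39 and Lyrm2 at 3.88 ± 0.583 CPM per kilobase (SD, n = 3). Lyrm4 overlapped with Sdhaf1, Lyrm9 and Lyrm2 over these libraries, whereas Lyrm9 lay below Sdhaf1 and above Lyrm2 in every one. Etfrf1 at 2.06 ± 0.378, Sdhaf3 at 0.731 ± 0.0439 and Lyrm1 at 0.303 ± 0.0579 CPM per kilobase came after them (SD, n = 3), with no overlap between neighbours in that order.

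In the vehicle group the order per kilobase was Sdhaf1 at 5.67 ± 0.874, Lyrm2 at 4.02 ± 0.636, Lyrm4 at 3.09 ± 0.251, Etfrf1 at 2.11 ± 0.329, Sdhaf3 at 0.902 ± 0.105, Lyrm9 at 0.771 ± 0.0543 and Lyrm1 at 0.262 ± 0.0265 CPM per kilobase (SD, n = 3). Lyrm9 overlapped with Sdhaf3 and Lyrm2 with Lyrm4, and the other neighbours in that order did not overlap. Both orders rest on the exon length used, and all members but Lyrm4 and Sdhaf1 have several annotated transcripts. Those of Lyrm1 have 456 to 5845 bases, where 7134 exon bases were used. Those of Sdhaf3 have 966 and 4323 bases, where 5095 were used. The place of Lyrm9 rests on its exon length as well. If all of its reads came from the 341-base transcript, it would stand at 114 ± 7.69 in the insB:9-23 group and 18.4 ± 1.30 CPM per kilobase in the vehicle group (SD, n = 3 each).

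Of the 7 members, 1 passed the edgeR test (adjusted p under 0.05 over all genes), which is Lyrm9, and 14 of 17016 genes did, or 0.0823% (5 higher in insB:9-23, 0.0294%, and 9 lower, 0.0529%). DESeq2 called 0.553% of 19178 genes. Since Lyrm9 was chosen on this test, nothing is read from that count. Of the other 6 members, 0 passed with edgeR and 0 passed with DESeq2, and 0 had an unadjusted p under 0.05 in edgeR, against 5.55% of all genes tested. Their median log2 fold was -0.03, beside 0.009 over all genes tested, and their log2 folds lay between -0.30 and 0.53.

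**Figure D3:**
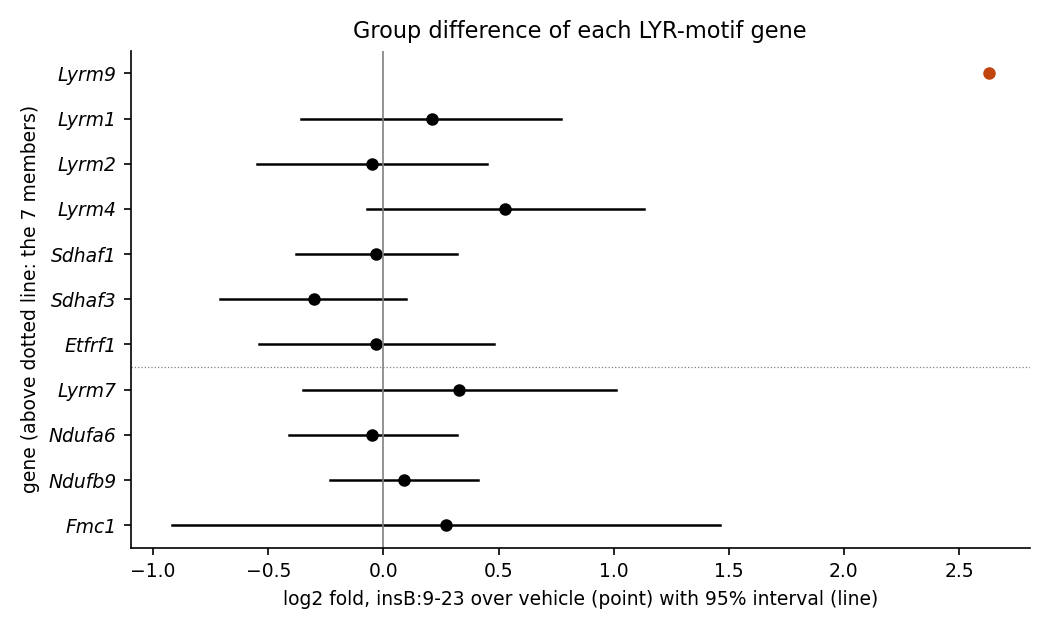
Log2 fold of insB:9-23 over vehicle for the 7 members (above the dotted line) and 4 further LYR-motif genes, with 95% intervals from edgeR (lines) for all but Lyrm9. Lyrm9, drawn without an interval because it was chosen on this contrast, lies at 2.63, and the intervals of the other 10 genes all include 0.

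Lyrm4, the partner of the cysteine desulfurase, had the highest fold among the other 6. It was at 9.10, 12.3 and 6.53 CPM in the insB:9-23 libraries, against 6.11, 6.17 and 7.05 CPM in the vehicle libraries. Replicates 1 and 2 of the insB:9-23 group lay above all vehicle libraries and replicate 3 did not. The log2 fold was 0.53 ± 0.25 (SE; 95% interval -0.07 to 1.13; edgeR adjusted p = 0.88). It was 0.28 without insB:9-23 replicate 2, the library with the highest Lyrm4 level, and 0.74 without insB:9-23 replicate 3, the library with the lowest level of its group. Lyrm4 shares 115 exon bases with Fars2, a mitochondrial tRNA synthetase gene on the other strand, and the strand setting of the counting is not given in the sources used here. Fars2 was at 15.2 ± 0.685 CPM in the insB:9-23 group and 16.3 ± 1.74 CPM in the vehicle group (SD, n = 3 each; edgeR adjusted p = 0.92).

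Both complex II assembly factors missed the test. Sdhaf3 was at 3.98, 3.63 and 3.56 CPM in the insB:9-23 libraries, against 4.12, 4.50 and 5.17 CPM in the vehicle libraries. Every insB:9-23 library lay below every vehicle library, which was also so for 7.12% of all genes tested, and the closest values of the groups differed by little. The log2 fold was -0.30 ± 0.16 (SE; 95% interval -0.71 to 0.10; edgeR adjusted p = 0.88). Sdhaf1, a gene with 1 exon, was at 12.8, 14.7 and 14.0 CPM in the insB:9-23 libraries, against 16.6, 13.4 and 12.4 CPM in the vehicle libraries. These groups overlapped, with a log2 fold of -0.03 ± 0.14 (SE; 95% interval -0.38 to 0.32; edgeR adjusted p = 0.98). The gene E130208F15Rik, which covers 1733 bases of the Sdhaf1 exon on the other strand, had 0 counts in all 6 libraries.

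Etfrf1, the regulator of the electron transfer flavoprotein, was at 6.23, 4.38 and 6.01 CPM in the insB:9-23 libraries, against 5.32, 4.98 and 6.65 CPM in the vehicle libraries. The groups overlapped, with a log2 fold of -0.03 ± 0.21 (SE; 95% interval -0.54 to 0.48; edgeR adjusted p = 0.99).

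Lyrm2 and Lyrm1 also overlapped between the groups. Lyrm2 was at 4.99, 4.61 and 3.69 CPM in the insB:9-23 libraries, against 4.83, 3.77 and 5.15 CPM in the vehicle libraries (log2 fold -0.05 ± 0.20, SE; 95% interval -0.55 to 0.45; edgeR adjusted p = 0.98). Lyrm1 was at 1.96, 2.63 and 1.88 CPM in the insB:9-23 libraries, against 2.09, 1.75 and 1.78 CPM in the vehicle libraries (log2 fold 0.21 ± 0.23, SE; 95% interval -0.36 to 0.77; edgeR adjusted p = 0.92). Lyrm1 was highest in insB:9-23 replicate 2. Dcun1d3, a gene on the other strand that shares 37 exon bases with Lyrm1, was at 30.4 CPM in that library and at 5.81 to 7.44 CPM in the other 5. The part of this overlap in the Lyrm1 count was not tested. Lyrm1 also shares 1506 exon bases with Dnah3, which had at most 7 counts in any library.

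Of the 4 further LYR-motif genes, 0 passed with edgeR or DESeq2 and 0 had an unadjusted p under 0.05 in edgeR, with a median log2 fold of 0.18. Ndufa6 and Ndufb9, both complex I subunits, were at 35.2 ± 4.77 and 42.3 ± 6.65 CPM in the insB:9-23 group and at 36.4 ± 5.07 and 39.8 ± 3.08 CPM in the vehicle group (SD, n = 3 each). Their log2 folds were -0.05 ± 0.15 for Ndufa6 and 0.09 ± 0.13 for Ndufb9 (SE; edgeR adjusted p = 0.97 and 0.94). Lyrm7, a chaperone of the Rieske protein, averaged 3.46 ± 0.754 CPM in the insB:9-23 group and 2.76 ± 0.663 CPM in the vehicle group (SD, n = 3 each; log2 fold 0.33 ± 0.28, SE; edgeR adjusted p = 0.90). Ndufb9 shares 201 exon bases with Gm49356, which had at most 25 counts in any library. Fmc1 was at 4.00, 1.62 and 1.57 CPM in the insB:9-23 libraries, against 1.38, 2.85 and 1.74 CPM in the vehicle libraries, so each group had 1 library well above the other 2 (log2 fold 0.27 ± 0.49, SE; edgeR adjusted p = 0.95).

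The pathways that these proteins serve were described from 6 lists, of which the further LYR-motif genes are 1. Of 17 iron-sulfur cluster assembly genes, 0 passed with edgeR or DESeq2 and 0 had an unadjusted p under 0.05 in edgeR. Their median log2 fold was -0.08, with 6 above 0 and 11 below. Nfs1, the desulfurase that Lyrm4 stabilises, was at 29.6 ± 1.06 CPM in the insB:9-23 group and 30.7 ± 1.72 CPM in the vehicle group, with an edgeR adjusted p of 0.94 (SD, n = 3 each). Iscu, the scaffold on which clusters are built, was at 37.7 ± 1.13 CPM in the insB:9-23 group and 40.2 ± 2.18 CPM in the vehicle group (SD, n = 3 each; edgeR adjusted p = 0.90). The genes with the highest and lowest fold of the list each had 1 vehicle library that stood apart. Glrx5, a glutaredoxin of cluster transfer, was at 16.0, 16.2 and 28.9 CPM in the insB:9-23 libraries and at 0.332, 15.4 and 16.9 CPM in the vehicle libraries (edgeR adjusted p = 0.93). Bola1 was at 1.31, 1.19 and 1.25 CPM in the insB:9-23 libraries and at 1.27, 7.04 and 0.918 CPM in the vehicle libraries (edgeR adjusted p = 0.88).

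Of 6 complex II genes, 0 passed with edgeR or DESeq2 and 0 had an unadjusted p under 0.05 in edgeR. The median log2 fold was -0.26, with 1 above 0 and 5 below. It was -0.06 without insB:9-23 replicate 3 and -0.03 when the level of acinar (exocrine) marker genes was added to the fit as a covariate. Under the other processing choices, and with any other library left out, it lay between -0.39 and -0.22. In insB:9-23 replicate 3 both membrane anchor subunits were low. Sdhd was at 59.8, 69.7 and 18.1 CPM in the insB:9-23 libraries, against 63.1, 58.8 and 63.2 CPM in the vehicle libraries (edgeR adjusted p = 0.94). Sdhc was at 53.8, 36.2 and 22.0 CPM in the insB:9-23 libraries, against 36.0, 54.6 and 53.9 CPM in the vehicle libraries (edgeR adjusted p = 0.91). Both were named after their values were seen. Sdhb, the iron-sulfur subunit that Sdhaf1 and Sdhaf3 act on, had the highest fold, at 47.2 ± 2.96 CPM in the insB:9-23 group and 43.5 ± 5.88 CPM in the vehicle group (SD, n = 3 each; edgeR adjusted p = 0.91). Sdhaf2, which helps to attach flavin to complex II, had the lowest, at 8.08, 8.32 and 7.43 CPM in the insB:9-23 libraries and at 8.66, 9.50 and 16.1 CPM in the vehicle libraries (edgeR adjusted p = 0.88). Vehicle replicate 3 stood apart from the other 5 libraries. Sdha, the flavin subunit, was at 163, 203 and 194 CPM in the insB:9-23 libraries, against 211, 206 and 213 CPM in the vehicle libraries (log2 fold -0.17 ± 0.09, SE; edgeR adjusted p = 0.88). The groups of Sdhaf2 and of Sdha did not overlap, with insB:9-23 lower, as for 7.12% of all genes tested.

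Of 15 genes for the electron transfer flavoprotein and the acyl-CoA dehydrogenases that feed it, 0 passed with edgeR or DESeq2 and 0 had an unadjusted p under 0.05 in edgeR (median log2 fold 0.01). Etfa and Etfb, the subunits of the flavoprotein, had log2 folds of 0.09 ± 0.11 and 0.02 ± 0.12 (SE; edgeR adjusted p = 0.93 and 0.99). Gcdh, glutaryl-CoA dehydrogenase, had the highest fold, at 31.1 ± 4.49 CPM in the insB:9-23 group and 27.8 ± 0.582 CPM in the vehicle group (SD, n = 3 each; edgeR adjusted p = 0.90). Acadsb, a short branched-chain acyl-CoA dehydrogenase, had the lowest, at 43.6, 42.3 and 46.1 CPM in the insB:9-23 libraries and at 44.0, 84.9 and 48.9 CPM in the vehicle libraries (edgeR adjusted p = 0.88). Vehicle replicate 2 stood apart from the other 5 libraries, which overlapped between the groups.

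Mitochondrial fatty acid synthesis makes the acyl chain on the carrier protein that many LYR-motif proteins bind. Of 10 genes listed, 9 were found by symbol, 0 of these passed with edgeR or DESeq2, and 2 (Lipt1 and Aasdhppt) had an unadjusted p under 0.05 in edgeR, against 5.55% of all genes tested (median log2 fold 0.06). Lipt1, a lipoyltransferase, was at 0.102, 0.285 and 0.197 CPM in the insB:9-23 libraries, against 0.253, 0.577 and 1.37 CPM in the vehicle libraries (log2 fold -1.90 ± 0.76, SE; edgeR adjusted p = 0.88). Its groups overlapped, and it was named after its values were seen. Ndufab1, the acyl carrier protein itself, was at 17.7, 24.3 and 28.3 CPM in the insB:9-23 libraries, against 32.0, 28.3 and 24.6 CPM in the vehicle libraries (log2 fold -0.27 ± 0.20, SE; edgeR adjusted p = 0.89). The groups overlapped. Aasdhppt, which attaches the prosthetic group to carrier proteins, averaged 14.5 ± 1.96 CPM in the insB:9-23 group and 10.5 ± 1.10 CPM in the vehicle group (SD, n = 3 each; log2 fold 0.47 ± 0.15, SE; edgeR adjusted p = 0.88). Its groups did not overlap, with insB:9-23 higher, as for 6.4% of all genes tested.

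In the short list for insertion of the Rieske protein into complex III, the step that Lyrm7 serves, 1 of 3 genes passed the edgeR test, and it was lower, as were 0.0529% of all genes tested. Uqcrfs1, the Rieske protein, was at 21.0, 23.7 and 16.9 CPM in the insB:9-23 libraries, against 58.4, 58.6 and 58.6 CPM in the vehicle libraries (log2 fold -1.51 ± 0.13, SE; edgeR adjusted p = 0.035). The list was made with that result known, and the call ended without any 1 of the vehicle libraries, without insB:9-23 replicate 1, by library totals alone, with the acinar covariate and with the replicate block. Bcs1l, which moves the Rieske protein across the inner membrane, was at 8.42 ± 1.26 CPM in the insB:9-23 group and 7.62 ± 0.812 CPM in the vehicle group, with an edgeR adjusted p of 0.92 (SD, n = 3 each). Ttc19, which acts late in complex III assembly, was at 21.3 ± 2.76 CPM in the insB:9-23 group and 25.2 ± 2.70 CPM in the vehicle group (SD, n = 3 each; edgeR adjusted p = 0.88).

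**Figure D4:**
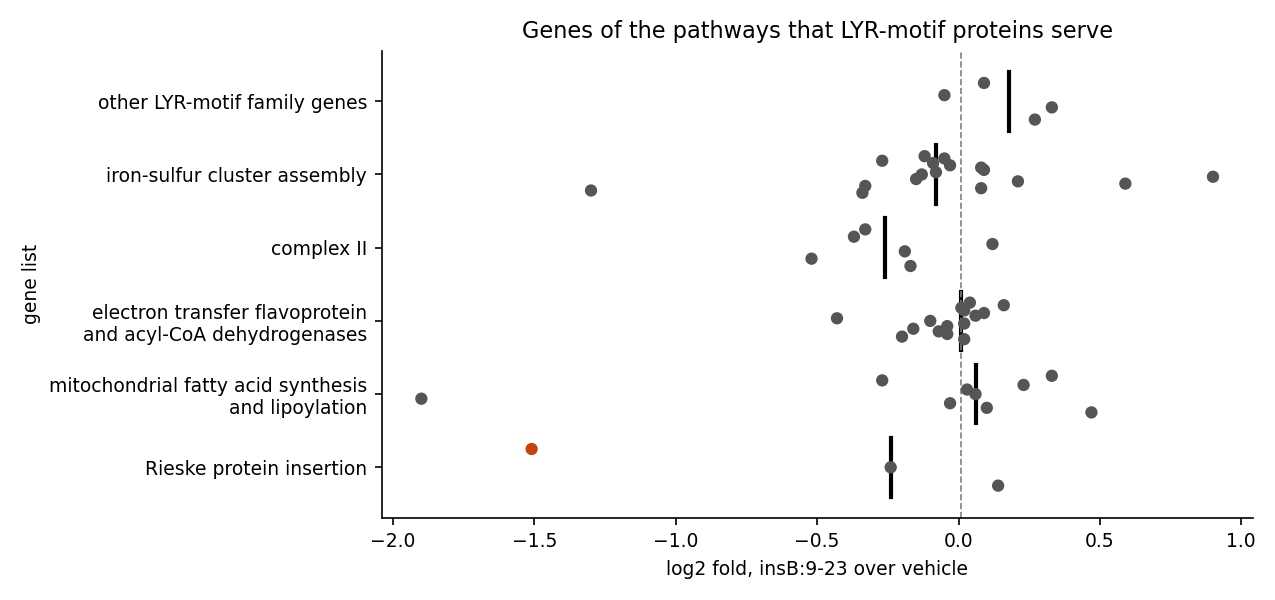
Log2 fold of insB:9-23 over vehicle for each tested gene of the 6 lists (points; the 1 gene past the edgeR test, Uqcrfs1, in red), with the median of each list (black line) and of all genes tested (dashed line, 0.009). List medians lie between -0.26 for complex II and 0.18 for the further LYR-motif genes. That of complex II is -0.06 without insB:9-23 replicate 3 and -0.39 without insB:9-23 replicate 1. That of the further LYR-motif genes is 0.06 without vehicle replicate 1 and 0.09 without vehicle replicate 2.

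The genes whose pattern over the 6 libraries was most like that of Lyrm9 were ranked by Pearson's correlation of log2 CPM among 12587 genes with a mean of at least 1 CPM. They were Coa4 (r = 0.999), Smim14 (0.999), Tubb2a (0.994), Kbtbd8 (0.986) and Ddit4 (0.983). The points share the split into 2 groups, so these values describe genes that were likewise higher in all insB:9-23 libraries. Coa4, Smim14 and Tubb2a passed the edgeR test (adjusted p = 0.0017, 0.0025 and 0.0044), and Kbtbd8 and Ddit4 did not. All were picked by likeness to Lyrm9, so nothing more is read from these tests. Coa4, which helps to assemble cytochrome c oxidase, was at 6.18, 5.92 and 5.66 CPM in the insB:9-23 libraries and had at most 2 counts in a vehicle library. Kbtbd8, a ubiquitin ligase adaptor, was at 6.86 ± 0.390 CPM in the insB:9-23 group and 4.59 ± 0.124 CPM in the vehicle group, with an edgeR adjusted p of 0.80 (SD, n = 3 each). Ddit4, an inhibitor of mTOR signalling, was at 62.9 ± 2.07 CPM in the insB:9-23 group and 41.8 ± 2.44 CPM in the vehicle group (SD, n = 3 each; edgeR adjusted p = 0.15).

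The libraries held islet RNA with much exocrine RNA. Total counts lay between 52052808 and 58880189. The 12 acinar marker genes took 14.1%, 12.3% and 18.7% of counts in the insB:9-23 libraries, against 11.4%, 12.3% and 13.2% in the vehicle libraries, and the 8 beta cell markers took 9.46% to 13.6% in the insB:9-23 group and 11.8% to 13.6% in the vehicle group. Mafa, a beta cell factor, had 0 counts in all 6 libraries. Whether its reads were lost in the counting was not tested, so this is not read as absence of its RNA. With the acinar level as a covariate, the log2 fold of Lyrm9 was 2.68 ± 0.12 and that of Lyrm4 was 0.80 ± 0.21 (SE; edgeR adjusted p = 0.94 for Lyrm4). In insB:9-23 replicate 2, where Lyrm9, Lyrm4, Lyrm1 and Lyrm7 were highest, markers of B and plasma cells made up 0.00613% of counts, against at most 0.00121% in the other 5 libraries. T cell markers took 0.00101% there, against at most 0.000214%, and myeloid markers 0.0128%, against at most 0.00525%. The log2 fold of Lyrm9 was 2.60 without that library. The part of these cells in the levels of Lyrm4, Lyrm1 and Lyrm7 was not tested.

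**Figure D5:**
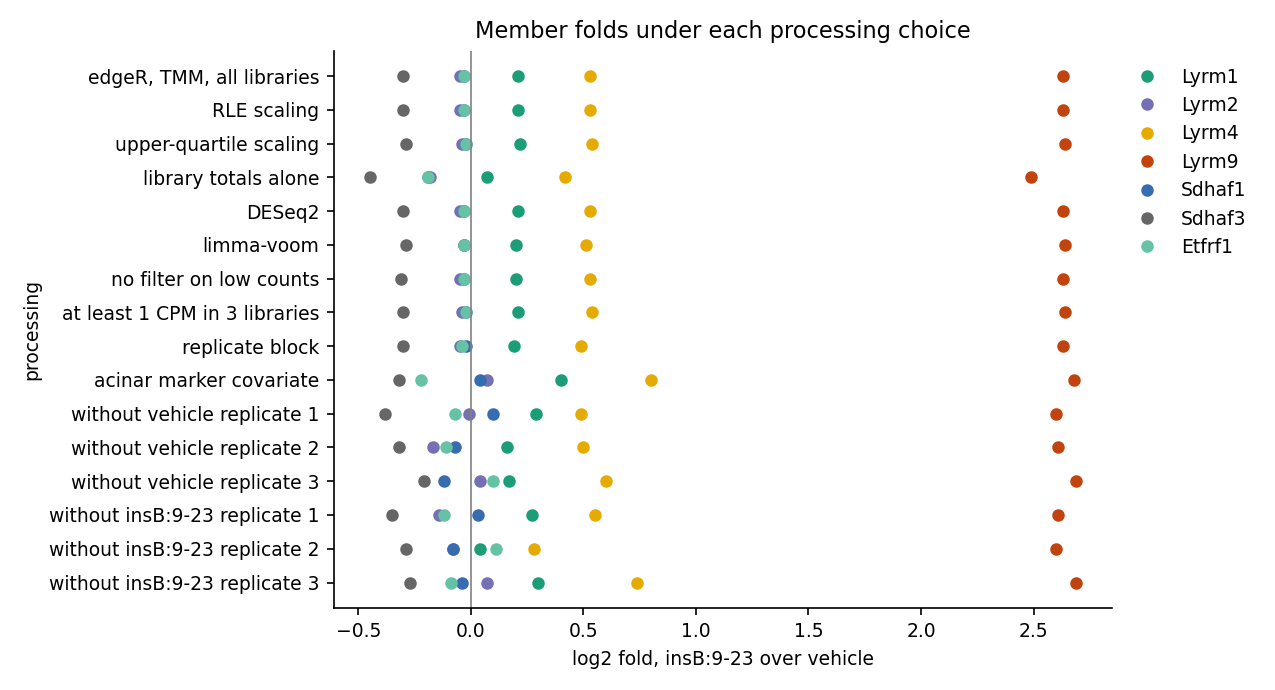
Log2 fold of insB:9-23 over vehicle for the 7 members under each processing choice and with each library left out. Lyrm9 stays between 2.49 and 2.69, and the other 6 members stay between -0.45 and 0.80.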

How the data were processed

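Each library has its own deposited table of raw counts by Ensembl gene ID, as the authors left them per the file headers. Tools named in the submitters' processing notes are featureCounts 1.5.0-p3, HISAT and DESeq 1.8.3, on build GRCm38, without the role of each. Sample titles gave the group and replicate number. Symbols were found in GENCODE M21 for 55154 of 55421 gene IDs.

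Genes were kept with filterByExpr (17016) and tested with edgeR 4.0.16 in R 4.3.3, with TMM scaling, a robust quasi-likelihood F test and Benjamini-Hochberg adjustment over all genes tested, at a threshold of 0.05. The SE is the log2 fold divided by the root of F. A count of 3 corresponds to 0.0475 to 0.0655 CPM, and this covers counting error only. Exon length is the union of annotated exons. Transcripts were compared with megablast. DESeq2 1.42.0 and limma 3.58.1 were alternatives, with other scalings and filters, the replicate block, the acinar covariate and each library left out.

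The members and lists were chosen with earlier results of these data known. In the lists, genes past the test, the highest and lowest fold with a mean of at least 1 CPM, and partners of the members are named. Partners beyond the extremes were chosen after their values were seen. On data simulated for insB:9-23 against vehicle (16435 genes tested), edgeR called 66 of the 100 genes set to a 4-fold change. It called 16 of the 100 set to 2-fold, and 12 of its 94 calls were false.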

Additional observations from a re-analysis of the deposited data

How the results depend on the processing

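Under the 15 alternatives the log2 fold of Lyrm9 lay between 2.49 (library totals alone) and 2.69, and between 2.60 and 2.69 with each library left out. Whether same-numbered libraries belong together is not given in the sources used here. Their deviations from the group means correlated over genes with r of -0.0349, -0.0637 and -0.0249. These values cannot decide it, since a pairing that moved few genes would hardly show in them. With the replicate block the log2 fold of Lyrm9 was 2.63 ± 0.13 (SE), 0 genes, 0 members and 0 Rieske genes passed, and fewer residual degrees of freedom remained. The other 6 members and the 4 further LYR-motif genes passed under none of the 15. The folds of Lyrm1, Lyrm4, Lyrm7 and Sdhaf3 kept their sign under all 15, and those of Etfrf1, Lyrm2, Sdhaf1, Ndufa6, Ndufb9 and Fmc1 turned sign under 1 to 3.

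Library totals alone moved the median log2 fold of all genes to -0.15. The count of genes past the test was 14, and 106 with DESeq2, 9 with the acinar covariate and 16 to 26 with a library left out. The Rieske list held 0 genes past the test by library totals alone, with the acinar covariate and with the replicate block, and 0 to 1 with a library left out. The cause was not tested. The difference in the Lyrm9 share of member counts was 35.57 percentage points, 17.4 per kilobase of exon, 19.1 over all 11 LYR-motif genes, and 34.96 to 36.01 with a library left out. The share depends by construction on the genes and lengths it is taken over. In simulation 16 of 100 genes with a 2-fold change were recovered, which limits what the missed tests show.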
